A study of Mus musculus with 9 samples.

Results

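The 10 genes described here encode proteins of the PIWI-interacting RNA (piRNA) pathway: Mael, Piwil2, Tdrd1, Tdrd5, Tdrd9, Tdrkh, Asz1, Mov10l1, Pld6 and Ddx4. They were chosen by name, with earlier results of these data known. The rows carrying these symbols were taken from the 25965 genes for which expression was deposited, and all 10 were found. Of these, 9 passed the filter on low values, which required at least 3 of 9 libraries to exceed -2 log2 units and left 14601 genes for testing. Asz1 was the member below the filter.

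Polyadenylated RNA was sequenced from E14 cells, a feeder-free mouse embryonic stem cell line of 129/Ola background grown in serum with LIF. The study describes its knockdowns in cells carrying the reporter transgenes MERVL::tdTomato and Zscan4c::eGFP, which the labels of these libraries do not mention. Cells received control, Dppa2 or Dppa4 siRNA at 0 and again at 48 h, and were collected at 96 h (day 4), giving 3 libraries (A, B and C) for each siRNA. All cultures therefore received siRNA, and no culture without siRNA was measured. Dppa2 and Dppa4 are related DNA-binding proteins of pluripotent cells. The study describes replicates of its siRNA-treated cells as biological. The labels name the libraries of every siRNA rep3A, rep3B and rep3C and do not say whether they came from separate cultures. Whether all belong to the same replicate experiment cannot be told from them. The p values measure the spread between these libraries.

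piRNAs are small RNAs that guide PIWI proteins, a germline branch of the Argonaute family, to transposon transcripts and to the loci that produce them. In the fetal male germline, long precursors are selected by the helicase Mov10l1, cut at the mitochondrial surface by the nuclease Pld6, trimmed, and loaded onto Piwil2 and Piwil4. Tudor domain proteins, which bind methylated arginines on PIWI proteins, and the helicase Ddx4 organise these steps in perinuclear granules called nuage. The pathway is best known for silencing transposons by DNA methylation in germ cells, and several of its genes are also transcribed at low levels in embryonic stem cells.

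Both siRNAs lowered their own target. Dppa2 was at 7.26, 7.16 and 6.94 log2 units in the control libraries and at 3.36, 3.86 and 3.68 with Dppa2 siRNA, leaving 8.98% ± 1.54 (SD, n = 3) of the control level. Dppa4 was at 7.02, 7.11 and 7.06 in control and at 6.16, 6.14 and 6.09 with Dppa4 siRNA, leaving 52.4% ± 1.22 (SD, n = 3). Dppa4 mRNA was thus reduced less by its siRNA than Dppa2 mRNA by its own. Depth, inferred from the steps between low values, was about 17.4 to 41.7 M reads on genes per library. Core and naive pluripotency markers were expressed in all groups, with summed linear levels of 2317 to 2578 and 1133 to 1694 over the libraries. Of these, 0 of 5 and 0 of 8 genes passed the limma threshold in either knockdown. At an unadjusted p below 0.05, 1 core gene was higher with Dppa4 siRNA and 1 naive gene with Dppa2 siRNA. Of all tested genes, 18% and 15.7% had such a p in either direction. Of 6 fibroblast genes, Postn and Lum were at 0 in every library, and Col1a2 and Col3a1 were below the filter on low values. Thy1 and Col1a1 were detected in all libraries, with control means of 2.42 and 0.43 log2 units.

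The decrease in Mael extended to part of the pathway. Mael, Ddx4, Mov10l1 and Tdrd1 fell in both knockdowns, to between 26.5% and 37.3% of the control level when Dppa2 was targeted and to between 36.3% and 49.2% when Dppa4 was. The other 5 tested members, Piwil2, Tdrkh, Pld6, Tdrd5 and Tdrd9, did not pass the test in either knockdown. By limma on the log2 values with Benjamini-Hochberg adjustment over all 14601 genes (threshold 0.05), 4 of 9 tested members were lower and 0 higher with each siRNA, against 2.27% of all tested genes called lower with Dppa2 siRNA and 2.34% with Dppa4 siRNA. The share of tested genes called higher was 1.16% and 1.1%. At an unadjusted p below 0.05, 6 members were lower and 0 higher with Dppa2 siRNA, and 5 were lower and 1 higher with Dppa4 siRNA. Of all tested genes, 15.7% and 18% had such a p in either direction. The median log2 change of the tested members was -0.60 and -0.41 in the Dppa2 and Dppa4 knockdowns, beside 0.02 and 0.03 over all tested genes. Mael, whose decrease was already known, is included in these counts and medians. The members were also chosen with earlier results of these data known, so the counts and medians describe the list and do not test it. Because Dppa2 and Dppa4 siRNA were compared with the same 3 control libraries, the calls of the knockdowns are not independent of each other.

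Among the proteins that bind precursors and PIWI complexes, Mov10l1 and Ddx4 are RNA helicases. Mov10l1 (ENSMUSG00000015365, GRCm38 chromosome 15 from 88982909 to 89055152, plus strand) was at 2.80, 2.63 and 2.71 in control libraries A, B and C, at 0.95, 1.13 and 0.82 with Dppa2 siRNA and at 1.91, 1.59 and 1.55 with Dppa4 siRNA. The groups did not overlap, and the libraries with Dppa4 siRNA lay between the others. The log2 change was -1.75 (95% interval -2.09 to -1.41, adjusted p = 0.00033 by limma) with Dppa2 siRNA and -1.03 (-1.37 to -0.69, adjusted p = 0.0071 by limma) with Dppa4 siRNA. Ddx4, the mouse homologue of Vasa and a defining component of nuage (ENSMUSG00000021758, chromosome 13 from 112598333 to 112652310, minus strand), was at 3.27, 2.79 and 2.60 in control, at 0.79, 1.32 and 0.82 with Dppa2 siRNA and at 1.54, 1.69 and 1.84 with Dppa4 siRNA. Control library A was the highest of its group, and again no groups overlapped. Ddx4 changed by -1.91 (95% interval -2.39 to -1.42, adjusted p = 0.0016 by limma) with Dppa2 siRNA and by -1.19 (-1.68 to -0.71, adjusted p = 0.018 by limma) with Dppa4 siRNA. The call with Dppa4 siRNA was narrow: leaving out control library B or any of the Dppa4 siRNA libraries raised the adjusted p to between 0.051 and 0.091.

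Mael, or Maelstrom, is a nuage protein with an HMG box that takes part in piRNA production and transposon silencing. Mael (ENSMUSG00000040629, chromosome 1 from 166201385 to 166238744, minus strand) was at 3.69, 4.03 and 3.75 in control, at 1.72, 2.0 and 2.02 with Dppa2 siRNA and at 2.51, 2.28 and 2.31 with Dppa4 siRNA. Every knockdown library was below every control library by more than 1 log2 unit. With Dppa2 siRNA 26.6% ± 3.01 (SD, n = 3) of the control level was left, a log2 change of -1.91 (95% interval -2.24 to -1.59, adjusted p = 0.00016 by limma). With Dppa4 siRNA 36.3% ± 3.15 (SD, n = 3) was left, a change of -1.46 (-1.78 to -1.13, adjusted p = 0.00072 by limma). In the ranking of all 14601 tested genes from the most negative change upwards, Mael stood at 206 and 268, Ddx4 at 207 and 373, Mov10l1 at 234 and 451, and Tdrd1 at 303 and 364 with Dppa2 and Dppa4 siRNA.

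**Figure D1:**
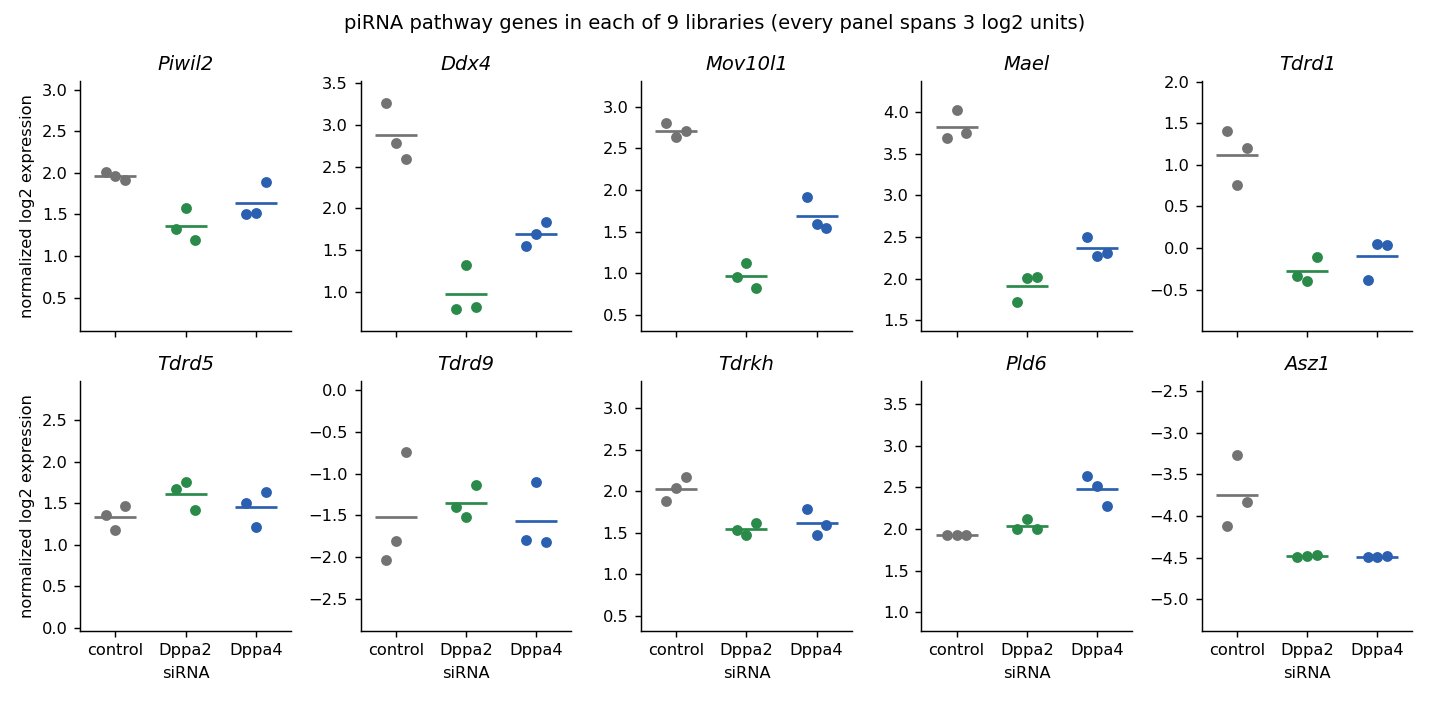
Normalized log2 expression (y axis) of each of the 10 piRNA pathway genes in the 3 libraries of each siRNA (x axis), with points for libraries A, B and C from left to right and a line for the group mean. All panels span the same number of log2 units. In the panels of Ddx4, Mov10l1, Mael and Tdrd1 the knockdown libraries sit below all control libraries by a wide gap, in those of Tdrd5 and Tdrd9 the groups overlap, and in that of Asz1 every knockdown library is at the lowest value.

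The Tudor domain proteins did not move as a group. Tdrd1, a scaffold that binds Piwil2 in nuage (ENSMUSG00000025081, chromosome 19 from 56826209 to 56870012, plus strand), was at 1.41, 0.75 and 1.21 in control, at -0.34, -0.40 and -0.11 with Dppa2 siRNA and at -0.38, 0.05 and 0.04 with Dppa4 siRNA. Its log2 change was -1.40 (95% interval -1.92 to -0.89, adjusted p = 0.011 by limma) and -1.22 (-1.74 to -0.70, adjusted p = 0.023 by limma). About 58 to 95 reads per control library and 16 to 32 per knockdown library lie behind these values. The call with Dppa2 siRNA was lost without Dppa2 siRNA library A (adjusted p = 0.053), and that with Dppa4 siRNA without control library A or C or without any Dppa4 siRNA library (adjusted p = 0.051 to 0.10), the latter with changes of -1.08 to -1.30.

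Tdrkh, also called Tdrd2, is a mitochondrial Tudor protein needed for trimming of piRNA ends. Tdrkh was at 1.88, 2.03 and 2.17 in control, at 1.54, 1.47 and 1.62 with Dppa2 siRNA and at 1.79, 1.48 and 1.59 with Dppa4 siRNA. All knockdown libraries were below all control libraries, but the log2 differences of -0.49 (95% interval -0.81 to -0.17, adjusted p = 0.12 by limma) and -0.41 (-0.73 to -0.09, adjusted p = 0.17 by limma) missed the threshold. Tdrd5, required for nuage assembly, was at 1.35, 1.18 and 1.47 in control, at 1.67, 1.76 and 1.42 with Dppa2 siRNA and at 1.51, 1.22 and 1.63 with Dppa4 siRNA. These groups overlapped, with differences of 0.28 (95% interval -0.10 to 0.66, adjusted p = 0.52 by limma) and 0.12 (-0.26 to 0.50, adjusted p = 0.81 by limma). Tdrd9, a Tudor protein with a helicase domain, was near the detection limit, at -2.03, -1.81 and -0.74 in control, at -1.41, -1.52 and -1.13 with Dppa2 siRNA and at -1.79, -1.10 and -1.82 with Dppa4 siRNA. With 6 to 19 reads per library, its differences of 0.18 (95% interval -0.73 to 1.08) and -0.04 (-0.95 to 0.86) do not resolve changes smaller than about 1 log2 unit at this depth. The exons of Tdrkh overlap those of Oaz3 on the other strand over 2255 bases and those of Tdrd5 overlap 4930518J20Rik over 176 bases, and reads were counted by strand.

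The PIWI protein of the list and the nucleases and tethers at the mitochondrial surface did not pass the test or were too low to test. Piwil2, the Argonaute-like protein that carries piRNAs (ENSMUSG00000033644, chromosome 14 from 70372480 to 70429094, minus strand), was at 2.02, 1.97 and 1.91 in control, at 1.32, 1.57 and 1.19 with Dppa2 siRNA and at 1.51, 1.51 and 1.89 with Dppa4 siRNA. Libraries of both knockdowns were below all control libraries, though Dppa4 siRNA library C came close to control library C, and the knockdowns overlapped each other. The differences from control were -0.60 (95% interval -0.97 to -0.24, adjusted p = 0.092 by limma) and -0.33 (-0.70 to 0.04, adjusted p = 0.34 by limma), so 66.3% ± 9.12 and 80.3% ± 12.8 (SD, n = 3) of the control level were measured.

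Pld6, the endonuclease also named Zucchini or MitoPLD, was the member with the highest level relative to control with Dppa4 siRNA, whereas with Dppa2 siRNA Tdrd5 and Tdrd9 had larger positive differences. Pld6 was at 1.93, 1.92 and 1.93 in control, at 2.0, 2.12 and 2.0 with Dppa2 siRNA and at 2.63, 2.52 and 2.27 with Dppa4 siRNA. Libraries of both knockdowns were above all control libraries, where 9.57% and 13.7% of tested genes showed the same separation. The differences were 0.11 (95% interval -0.18 to 0.41, adjusted p = 0.82 by limma) and 0.55 (0.26 to 0.84, adjusted p = 0.058 by limma). Asz1, the ankyrin repeat protein of the mitochondrial surface also called Gasz, had about 2 to 8 reads per control library and 0 in each of the 6 knockdown libraries, and at this depth no fold can be given.

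**Figure D2:**
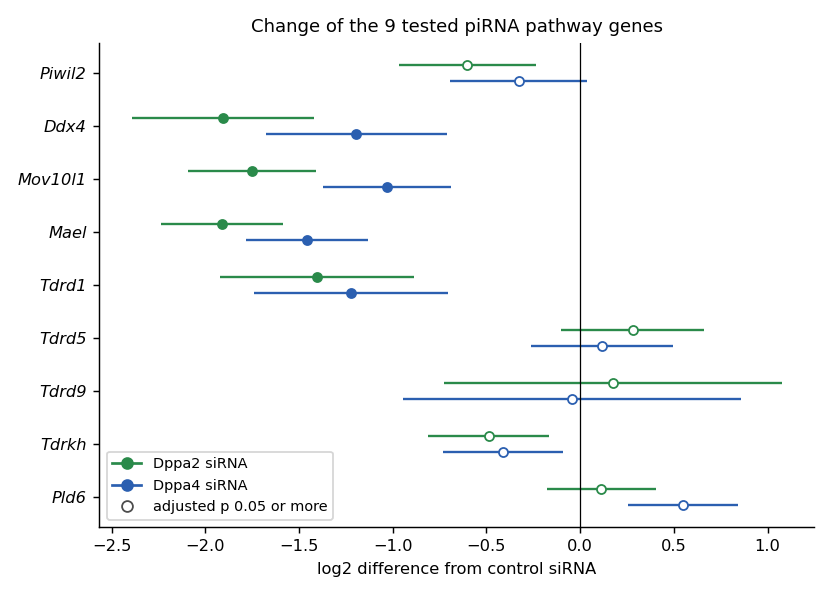
Log2 difference from control siRNA (x axis) of the 9 tested members with Dppa2 siRNA (green) and Dppa4 siRNA (blue), with lines for the 95% interval of the limma fit to 9 libraries and open points where the adjusted p was 0.05 or more. The intervals of Ddx4, Mov10l1, Mael and Tdrd1 end at -0.69 or lower in both knockdowns, and those of Tdrd5 and Tdrd9 span 0.

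Counted by separation of libraries, all 3 libraries with Dppa2 siRNA were below all 3 controls for 6 of 9 tested members, and the same count was reached with Dppa4 siRNA, where 8.2% and 10.2% of all tested genes showed this. The 6 were the 4 called genes with Piwil2 and Tdrkh. A stricter call also asked that a change be large for its expression level (intensity difference filter). The filter required a 2-sided p below 0.05 in a normal model of the changes of the 1% of genes nearest in mean expression. By this call, 3 members were lower in each knockdown, against 1.53% and 1.58% of tested genes. These were Mael, Ddx4 and Mov10l1. Tdrd1 did not pass the filter in either knockdown.

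**Figure D3:**
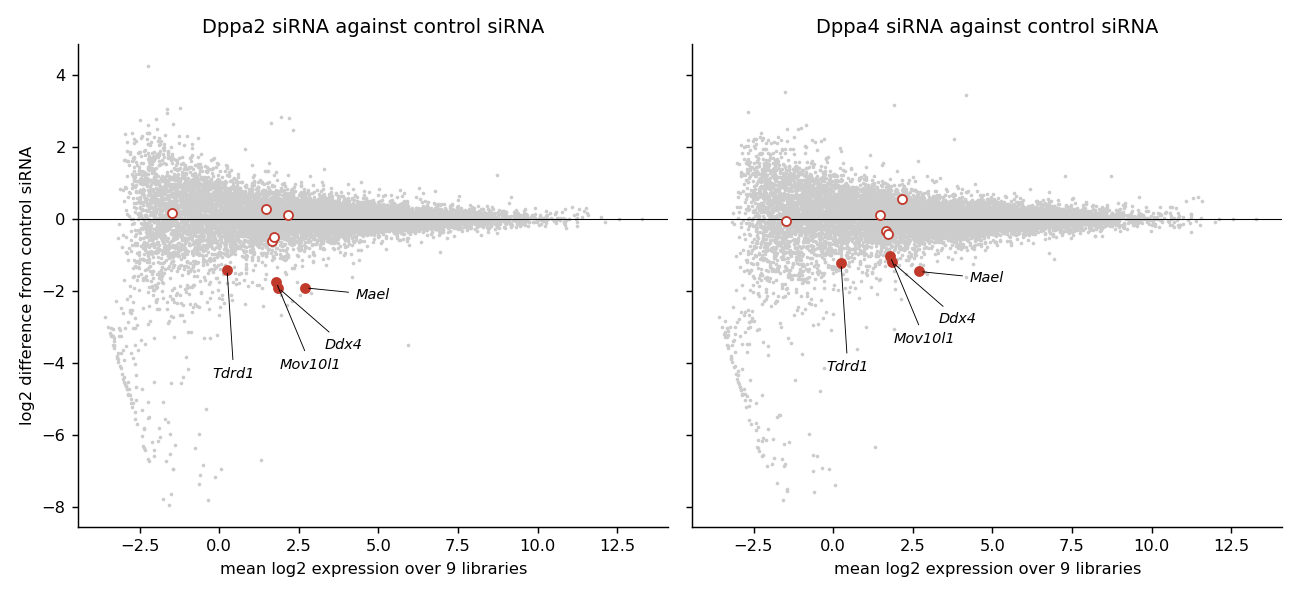
Log2 difference from control siRNA (y axis) against mean log2 expression over the 9 libraries (x axis) for all 14601 tested genes (grey) and the 9 tested members (red, filled where the adjusted p was below 0.05). Mael, Ddx4 and Mov10l1 lie under the cloud of genes of like expression, Tdrd1 lies near its lower edge, and a group of low-expressed genes falls by far more than any member.

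Levels between genes were compared per kilobase of exon. In control libraries Mael was highest, at 3.03 log2 units per kilobase, followed by Ddx4 at 1.29, Pld6 at 1.11, Mov10l1 at 0.65, Piwil2 at -0.44, Tdrkh at -0.59, Tdrd1 at -1.32, Tdrd5 at -1.46, Tdrd9 at -3.96 and Asz1 at -5.24. Ddx4 and Pld6, Piwil2 and Tdrkh, and Tdrd1 and Tdrd5 were neighbours that did not differ beyond about 1 SD between libraries. With Dppa2 siRNA, Pld6 (1.23) and Mael (1.12) stood at like levels per kilobase, and Piwil2, Tdrkh, Mov10l1 and Tdrd5 lay between -1.04 and -1.18. With Dppa4 siRNA, Pld6 was at 1.66 and Mael at 1.57.

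Comparing the knockdowns directly, 0 of 9 members passed limma's threshold, where 3 of 14601 tested genes (0.0205%) did and 987 (6.76%) had an unadjusted p below 0.05. The libraries with Dppa4 siRNA were all above those with Dppa2 siRNA for 4 members. These were Mael (difference 0.45, 95% interval 0.13 to 0.78, adjusted p = 0.67 by limma), Mov10l1 (0.72, 0.38 to 1.06, adjusted p = 0.59 by limma), Ddx4 (0.71, 0.23 to 1.20, adjusted p = 0.65 by limma) and Pld6 (0.43, 0.14 to 0.73, adjusted p = 0.65 by limma). These were also the 4 members with an unadjusted p below 0.05. Such a separation was seen for 10.1% of tested genes. The decrease in Tdrd1 differed by 0.18 (95% interval -0.34 to 0.70). The target mRNAs were not reduced to the same extent in these libraries, as given above, and any part of this in the differences was not tested. By qRT-PCR the study reports a larger reduction of Dppa4 mRNA than measured here. At the protein level it reports a strong reduction of each target by its own siRNA. It also reports that Dppa4 siRNA lowered Dppa2 protein, with Dppa2 mRNA unchanged, and that Dppa2 siRNA lowered Dppa4 protein to a smaller extent.

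The rest of the pathway was described with a list of 23 further genes, also chosen with earlier results known, of which 19 were tested. Of these, 3 were called lower with Dppa2 siRNA and 1 with Dppa4 siRNA, against 2.27% and 2.34% of all tested genes, and 0 were called higher. At an unadjusted p below 0.05, 7 were lower and 1 higher with Dppa2 siRNA, and 5 were lower and 1 higher with Dppa4 siRNA. Of all tested genes, 15.7% and 18% had such a p in either direction. The median log2 changes of the 19 genes were -0.34 and -0.13. Fkbp6, a co-chaperone needed for loading piRNAs onto Piwil4 (ENSMUSG00000040013, chromosome 5 from 135291704 to 135349991, minus strand), fell in both. It was at 1.89, 2.30 and 2.72 in control, at 0.54, 0.20 and 0.69 with Dppa2 siRNA and at 1.04, 0.79 and 1.03 with Dppa4 siRNA. The groups were well separated, and the log2 changes of -1.83 (95% interval -2.35 to -1.31, adjusted p = 0.0028 by limma) and -1.35 (-1.87 to -0.83, adjusted p = 0.014 by limma) were in the range of those of Mael and Ddx4. The call with Dppa4 siRNA was lost without control library B or without Dppa4 siRNA library A or B (adjusted p = 0.054 to 0.082).

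Stk31, a Tudor domain kinase of germ cells, fell by 0.87 on the log2 scale with Dppa2 siRNA (adjusted p = 0.039 by limma), to 53.8% ± 1.25 (SD, n = 3) of the control level. With Dppa4 siRNA its difference was -0.80 (adjusted p = 0.055 by limma), and its libraries were at 2.16, 2.13 and 2.56 against 2.96, 2.83 and 3.45 in control. Tex19.1, a placental and germline protein that restrains transposons, was at 6.12, 6.20 and 6.77 in control, at 5.74, 5.53 and 5.63 with Dppa2 siRNA and at 5.86, 5.95 and 5.82 with Dppa4 siRNA, with log2 differences of -0.73 (adjusted p = 0.047 by limma) and -0.49 (adjusted p = 0.15 by limma). The Dppa2 siRNA call of Stk31 was lost without any 1 of the 9 libraries except Dppa4 siRNA C (adjusted p up to 0.15 by limma), and that of Tex19.1 without any 1 except control A or C (adjusted p up to 0.16 by limma).

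Of the other genes of the list with a control mean above 2 log2 units, none was called in either knockdown. Dnmt3l, the cofactor of de novo DNA methylation, was at 9.09, 9.12 and 9.43 in control, with differences of 0.17 (95% interval -0.06 to 0.41) and 0.36 (0.13 to 0.60, adjusted p = 0.10 by limma). Morc1, a germline transposon repressor, differed by -0.08 (95% interval -0.41 to 0.25) and -0.13 (-0.45 to 0.20). Tdrd12, a partner in secondary piRNA production, differed by -0.23 and -0.41, the Tudor protein Rnf17 by -0.44 and -0.36, and Pnldc1, the trimmer of piRNA ends, by 0.11 and 0.19. The remaining genes of this group were Gpat2 (0.04 and 0.06), Mybl1, the transcription factor of the meiotic pathway (0.07 and -0.30), and Exd1 (0.45 and 0.30). Untested for low values were Tdrd6, Spocd1, Btbd18 and Nanos2. Of 15 general RNA silencing relatives that somatic cells also use, among them the Argonautes Ago1 to Ago4, Dicer1, Drosha and Mov10, all were tested and 0 passed the limma threshold in either knockdown, with median changes of -0.09 and -0.04. At an unadjusted p below 0.05, 0 of the 15 relatives passed in either, where 15.7% and 18% of all tested genes did.

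**Figure D4:**
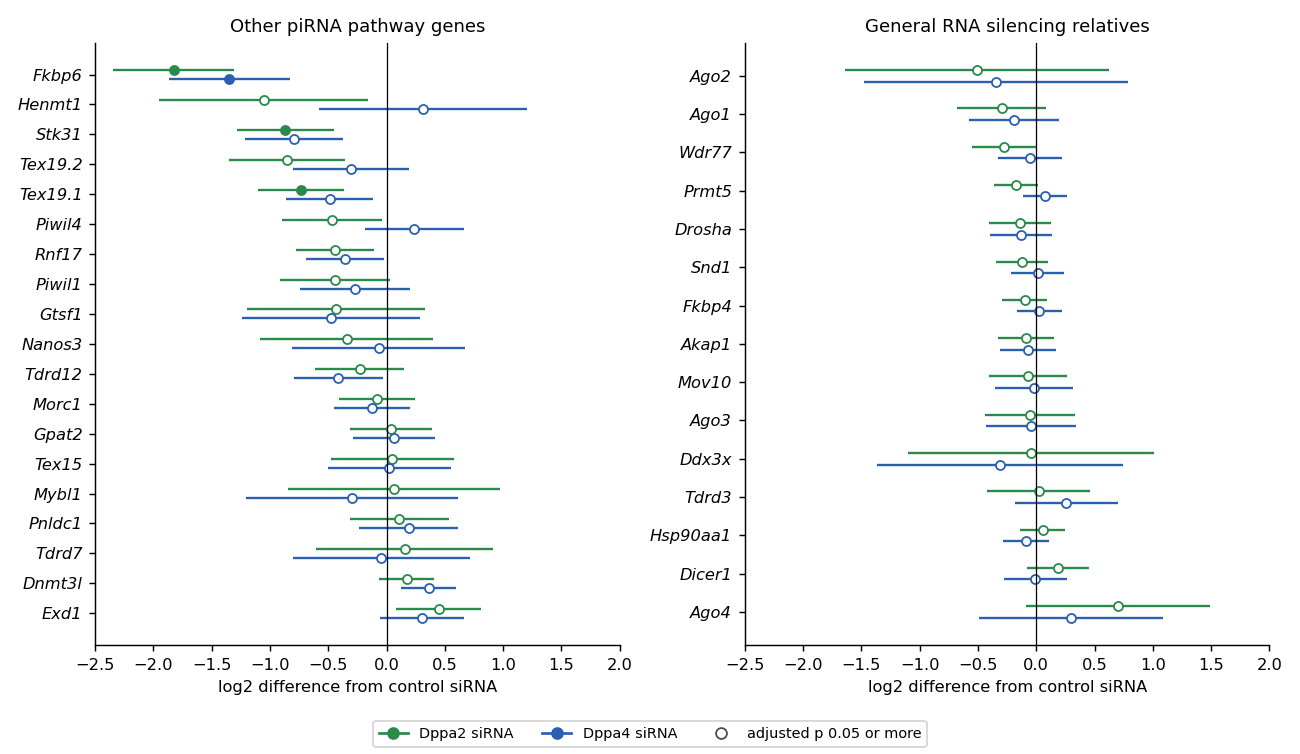
Log2 difference from control siRNA (x axis) of the 19 tested other piRNA pathway genes (left) and the 15 general RNA silencing relatives (right), with 95% intervals from limma, green for Dppa2 siRNA and blue for Dppa4 siRNA, and open points where the adjusted p was 0.05 or more. Filled points appear for Fkbp6 in both knockdowns and for Stk31 and Tex19.1 with Dppa2 siRNA, and for none of the relatives.

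Other markers moved in the same libraries. All 8 markers of 2-cell-like cells, a rare state within embryonic stem cell cultures, fell in both knockdowns, with median log2 changes of -6.345 and -6.31. Tcstv1 exceeded the filter bound of -2 log2 units in control libraries only. These markers had about 0 to 11 reads per knockdown library, so the sizes of their decreases depend on values near the lowest. Their summed linear level lay between 81.6 and 89.9 in control, between 0.562 and 1.32 with Dppa2 siRNA and between 0.686 and 1.27 with Dppa4 siRNA. The summed level of the 10 members lay between 43.9 and 46.5 in control, between 20.7 and 23.3 with Dppa2 siRNA and between 26.3 and 28.8 with Dppa4 siRNA. Mael, Ddx4 and Mov10l1 had the highest control means and weigh most in this sum. The sum of the 23 other pathway genes, where Dnmt3l weighs most, lay between 805.6 and 1057 in control. It lay between 875.5 and 961.5 with Dppa2 siRNA and between 997.8 and 1047 with Dppa4 siRNA. Of 10 germ cell markers, 8 were tested, 2 fell with Dppa2 siRNA (Dazl by 2.36 and Sycp1 by 3.29 on the log2 scale) and 1 with Dppa4 siRNA (Dazl by 2.19, with Sycp1 at -2.06 and an adjusted p of 0.12 by limma). At an unadjusted p below 0.05, 4 of the 8 were lower and 1, Sycp3, was higher with Dppa2 siRNA (0.35, adjusted p = 0.18 by limma), and 7 were lower and 0 higher with Dppa4 siRNA. Their summed level lay between 109 and 128 in control, 99.8 and 103 in the Dppa2 and 85.8 and 86.5 in the Dppa4 knockdown. These marker lists were checked for the labelled cell type, and Dazl, Sycp1 and Sycp3 were named after their values were seen because the counts are small. Primitive endoderm markers were called higher for 0 of 6 genes with Dppa2 siRNA and for 2 of 6 (Gata6 and Sox17) with Dppa4 siRNA, and 3 and 4 of them were higher at an unadjusted p below 0.05. Their summed level lay between 8.56 and 12.6 in control, 12.3 and 15.5 in the Dppa2 and 17.2 and 19.3 in the Dppa4 knockdown. Of 6 early differentiation genes 0 were called in either knockdown (3 lower and 1 higher with Dppa2 siRNA and 2 lower with Dppa4 siRNA at an unadjusted p below 0.05), and of 6 fibroblast genes 2 were tested and 0 called (0 at an unadjusted p below 0.05). Beside these marker counts, 2.27% and 2.34% of all tested genes were called lower with Dppa2 and Dppa4 siRNA, and 1.16% and 1.1% higher. An unadjusted p below 0.05 in either direction was found for 15.7% and 18% of them. The part of these cell states in the decrease of the piRNA pathway genes was not tested, and in bulk RNA fewer cells expressing a gene and less RNA per cell cannot be told apart.

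Over the 9 libraries, the genes whose log2 values ran most closely with those of Mael were Nos3 (Pearson r = 0.988), Cd79a (0.983), Sohlh2 (0.980), Rasal3 (0.979) and Flrt2 (0.978). Sohlh2, a germ cell transcription factor, lay between 3.52 and 3.78 in control, 0.88 and 1.60 in the Dppa2 and 1.28 and 1.61 in the Dppa4 knockdown. Among the members, r with Mael was 0.959 for Mov10l1, 0.934 for Ddx4, 0.910 for Tdrkh, 0.898 for Tdrd1 and 0.824 for Piwil2, and -0.154 for Tdrd9, -0.414 for Pld6 and -0.594 for Tdrd5. The points are the same 9 libraries in 3 treatment groups, and r largely follows the differences between group means. The nearest tested gene on each side of the 9 tested members made 18 neighbours, of which 0 were called lower in either knockdown and 1 was called higher in each, Panx2 beside Mov10l1 with Dppa2 siRNA (2.31, adjusted p = 0.035 by limma) and Aspg beside Tdrd9 with Dppa4 siRNA (0.80, adjusted p = 0.028 by limma).

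Promoter sequence was examined because some members moved together while others did not. RefSeq promoters on GRCm38.p6 matched 9 of the 10 members, the exception being Piwil2. In the 250 bases before the start, the members held 8 to 40 CpG dinucleotides (median 18), beside a median of 6 (quartiles 2 and 16) over 32851 promoters. The RefSeq start used for Tdrd5 lies 316 bases inside its annotated gene. Its window, with the highest count of 40, is therefore not upstream of the gene, which also limits its motif results below. The next highest count was 31, in Ddx4. The palindromic E-box CACGTG, the site of basic helix-loop-helix factors such as the Max dimers, occurred in 6 of 9 member promoters, against 6.02% of all promoters and 9.18% of those with at least 8 CpG. The 4 members called in both knockdowns all held it, as did Pld6 and Tdrd9, which were not called, while Tdrd5, Tdrkh and Asz1 did not. Among the other pathway genes it occurred in 3 of 16 matched promoters, those of Fkbp6, Stk31 and Piwil1. Piwil1 was not called, and Tex19.1, called with Dppa2 siRNA, had a matched promoter without an E-box. The remaining genes of that list, among them Rnf17, Pnldc1 and Morc1, had no matched promoter. The windows of Henmt1 and Dnmt3l, without an E-box, also lie inside the annotated genes, with starts 473 and 340 bases from the 5′ ends. The E2F motif, searched as GCGGGAA or TTCCCGC, occurred in those of Ddx4 and Tdrd5, against 3.82% of all promoters and 7.77% of those with at least 8 CpG, and did not overlap an E-box. A match describes the letters of the window and does not show that a factor binds there. The 6 promoters with an E-box are shown to let its position be compared between called and uncalled members. Bases run 5′ to 3′ on the strand of the gene up to the start, or, for Mov10l1, up to the annotated 5′ end that precedes it, and capitals mark the E-box and, in Ddx4, also the E2F motif.
Mael (chr1:166238745-166238994, minus strand): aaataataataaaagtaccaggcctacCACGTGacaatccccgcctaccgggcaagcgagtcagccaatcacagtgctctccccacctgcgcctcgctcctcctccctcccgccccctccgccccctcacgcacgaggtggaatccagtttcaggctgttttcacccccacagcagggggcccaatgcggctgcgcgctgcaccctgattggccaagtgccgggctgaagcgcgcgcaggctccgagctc
Mov10l1 (chr15:88982744-88982908, plus strand): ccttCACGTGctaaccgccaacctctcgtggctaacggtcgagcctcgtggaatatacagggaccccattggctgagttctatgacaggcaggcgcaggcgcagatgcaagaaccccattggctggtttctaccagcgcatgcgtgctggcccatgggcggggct
Ddx4 (chr13:112652311-112652560, minus strand): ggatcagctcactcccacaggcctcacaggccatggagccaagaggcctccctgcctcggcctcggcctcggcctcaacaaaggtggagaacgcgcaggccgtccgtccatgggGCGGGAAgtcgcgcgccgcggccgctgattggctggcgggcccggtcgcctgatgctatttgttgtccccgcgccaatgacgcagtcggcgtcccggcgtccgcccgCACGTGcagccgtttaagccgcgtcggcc
Tdrd1 (chr19:56825959-56826208, plus strand): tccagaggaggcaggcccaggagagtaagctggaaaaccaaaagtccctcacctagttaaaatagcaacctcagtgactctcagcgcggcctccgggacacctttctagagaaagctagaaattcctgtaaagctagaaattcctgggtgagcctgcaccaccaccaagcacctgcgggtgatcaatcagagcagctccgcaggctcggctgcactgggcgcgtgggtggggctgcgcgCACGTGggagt
Pld6 (chr11:59787658-59787907, minus strand): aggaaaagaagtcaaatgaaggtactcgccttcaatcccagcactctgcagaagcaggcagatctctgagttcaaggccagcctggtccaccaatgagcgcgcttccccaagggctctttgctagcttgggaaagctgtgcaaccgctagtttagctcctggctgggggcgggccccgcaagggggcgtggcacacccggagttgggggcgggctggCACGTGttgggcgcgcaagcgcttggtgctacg
Tdrd9 (chr12:111971309-111971558, plus strand): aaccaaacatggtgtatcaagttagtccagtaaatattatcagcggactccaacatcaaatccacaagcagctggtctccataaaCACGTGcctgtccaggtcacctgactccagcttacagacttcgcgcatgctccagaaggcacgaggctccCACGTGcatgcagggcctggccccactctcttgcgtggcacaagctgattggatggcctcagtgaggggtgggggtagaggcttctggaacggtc
The E-box began 223 bases before the start in Mael, 246 in Mov10l1, 29 in Ddx4 and 11 in Tdrd1, and 33 bases before it in Pld6 and 165 and 95 in Tdrd9. Its distance from the start thus ranged widely within the called members, and the distances in Pld6 and Tdrd9 lay within that range.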

How the data were processed

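The authors deposited a table of normalized log2 expression per gene and library. Reads were trimmed with Trim Galore (0.4.5 per the labels' processing notes; the study's methods give another version) and, per the labels and methods, aligned to GRCm38 with HISAT2 2.0.5, quantified over strand-specific transcripts in SeqMonk and matched between libraries by their cumulative distributions. This matching can hide a change shared by most genes, and raw counts were not analysed here. Depth and low read numbers were inferred from the ranked distinct values of each library and are approximate. The test named by the study needs counts, so limma 3.58.1 (R 4.3.3, intensity trend) was fitted to the log2 values of all 9 libraries, with Benjamini-Hochberg adjustment over 14601 genes, a threshold of 0.05 and no pseudocount. Levels in percent are linear values relative to the mean of the control libraries. Intervals are 95% and per gene. The fit was tested on simulated data with 200 changed genes. The members and lists were chosen with earlier results of these data known. Named were all members, other pathway genes called in either knockdown or with a control mean above 2, relatives called in either, the 5 genes most correlated with Mael, and the siRNA targets. Genes were matched to a GENCODE annotation of GRCm38 and promoters to RefSeq. All per-sample columns were mapped to samples by their names. Tables and figures were made in Python 3.11.15. The alternatives tried were other filters, an added pseudocount of 1, other scalings, no trend, fewer libraries, a replicate block and the first component of variation within treatments as a covariate, the last chosen after seeing the data.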

Additional observations from a re-analysis of the deposited data

How the results depend on the processing

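The changes of Mael and Mov10l1 in both knockdowns and those of Ddx4 and Fkbp6 with Dppa2 siRNA passed the threshold in all 18 alternatives run for single genes. That of Ddx4 with Dppa4 siRNA passed in 12 of 18, that of Fkbp6 in 15, and those of Tdrd1 in 16 with Dppa2 and in 10 with Dppa4 siRNA, with no change of direction. Without any filter on low values, 7 members were lower with Dppa2 siRNA, now with Piwil2, Tdrkh and Asz1 (each adjusted p = 0.031 by limma), and 2 with Dppa4 siRNA, and 5 other pathway genes were lower and 1 higher with Dppa2 siRNA. The call of Asz1 rests on knockdown libraries with 0 reads, all at their lowest value, and gives no usable fold. Without the intensity trend 1 member, Pld6, was higher with Dppa4 siRNA. With the 6 libraries of the 2 groups alone, 1 other pathway gene was lower with Dppa2 siRNA. With the within-treatment component as a covariate, chosen after seeing the data, 1 member was higher with Dppa4 siRNA, 3 members differed between the knockdowns (Ddx4, Mov10l1 and Pld6), 7 and 5 other pathway genes were lower, and 1 and 2 were higher. The share of all tested genes called was not computed for any alternative. Counts under the alternatives, here and below, therefore cannot be read against such a share. The median change of the members with Dppa2 siRNA was -1.0 with a filter above 0 and -0.46 on log2(linear value + 1). With Dppa4 siRNA it was -0.72, -0.32 and, without a filter, -0.58.

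Leaving out 1 library at a time moved that median with Dppa4 siRNA between -0.49 and -0.34, and left 2 to 4 members lower with Dppa4 siRNA, 2 of them without any 1 Dppa4 siRNA library. It left 1 to 3 other pathway genes lower with Dppa2 siRNA, 0 or 1 lower and 0 or 1 higher with Dppa4 siRNA. The direction turned for uncalled differences near 0. Over the 9 omissions, Tdrd9 ranged from -0.077 (without control A) to 0.57 with Dppa2 siRNA and from -0.30 to 0.35 (without control C) with Dppa4 siRNA. Tdrkh between the knockdowns ranged from -0.0054 (without Dppa4 siRNA A) to 0.15. With Dppa2 siRNA, Gpat2 ranged from -0.073 to 0.16, Morc1 from -0.23 to 0.059, Mybl1 from -0.32 to 0.42 and Pnldc1 from -0.035 to 0.29. With Dppa4 siRNA, Gpat2 ranged from -0.02 to 0.18, Morc1 from -0.27 to 0.017, Mybl1 from -0.61 to 0.061 and Dppa2 from -0.14 to 0.020. The causes were not tested.

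The letters A, B and C recur in the 3 groups, but deviations of same-lettered libraries from their group means correlated between -0.585 and 0.367, so the letters were not taken as pairs. With the letter as a replicate block, 3 members were lower with Dppa2 siRNA and 2 with Dppa4 siRNA, and 1 other pathway gene was lower in each. The calls lost under the replicate block were those of Tdrd1 (adjusted p = 0.051 with Dppa2 and 0.080 with Dppa4 siRNA, by limma), Ddx4 with Dppa4 siRNA (0.075) and Stk31 and Tex19.1 with Dppa2 siRNA (0.066 and 0.13). Read numbers limit Tdrd9 and Asz1 most.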
